A study of Mus musculus with 2 samples.

Results

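Type 17 immunity genes were followed in single T cells from the meninges, the membranes that surround the brain. The set holds 9 of the 31053 genes in the matrices and was chosen by name: the receptor genes Il23r, Il17re, Il1r1, Ccr6 and Ltb4r1, the cytokine genes Il17a and Il17f, and the regulator genes Rora and Serpinb1a. The cells came from untreated C57BL/6 wild-type mice aged 7 months. Mucosal-associated invariant T (MAIT) cells were sorted from this tissue, as were T cells of the CD4 and CD8 lineages, and the 3 populations were mixed in the ratio 1 to 4 to 4, and the mixture was divided at random into 2 libraries of the 10x Genomics 5′ kit. Both libraries are therefore parts of 1 pool. No value could be tested across animals, no p-value is given, and every interval is an exact 95% interval that covers counting error only.

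Type 17 T cells are known for making the cytokines IL-17A and IL-17F, which act on epithelial, stromal and other cells at barrier surfaces. IL-23 and IL-1, sensed through Il23r and Il1r1, sustain this state. In mice, MAIT cells of barrier tissues are commonly of this type.

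No sort label per cell was used, and cells were gated by their own transcripts. How many mice gave the cells is not given in the labels. After removal of barcodes with under 200 genes or at least 10% mitochondrial molecules, 396 cells of library 1 and 213 cells of library 2 remained, together 609, with no barcode shared. The MAIT gate required at least 1 unique molecular identifier (UMI, a counted RNA molecule) of Trav1, the alpha chain segment of the MAIT receptor, and held 36 cells. The CD8 gate (UMIs of Cd8a, Cd8b1 or both, without Cd4 or Trav1) held 234 cells and the CD4 gate (a Cd4 UMI, neither Cd8 gene nor Trav1) held 85. A further 228 cells had a T-cell receptor or CD3 UMI and none of these 4 genes, and are called ungated T cells. The remaining 9 cells had Cd4 together with Cd8 UMIs, and 17 were in no gate.

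The libraries did not hold the gates in equal shares, although the labels describe a random division. The MAIT gate was 3.28% of library 1 (13 cells) and 10.8% of library 2 (23 cells), and the CD8 gate was 48.0% and 20.7%. Median depth was 3488.5 UMIs per cell in the MAIT gate, 3149 in the CD8 gate, 2557 in the CD4 gate and 2249 in ungated T cells. Of the markers of MAIT cells, Il18r1 had a UMI in 20 of 36 MAIT-gate cells and Zbtb16, which encodes the factor PLZF, in 5, while Klrb1 had no UMI in any gate. The invariant natural killer T-cell segments Trav11 and Traj18 had no UMI in the 4 gates, and Trdc, the gamma delta receptor constant gene, had none in the MAIT gate, although Tcrg-C1 was detected in 8 of its 36 cells. Any of 4 gamma delta receptor genes had a UMI in 12 of 36 MAIT-gate, 41 of 234 CD8-gate, 2 of 85 CD4-gate and 25 of 228 ungated T cells. Of the ungated T cells, 19 had a natural killer or innate lymphoid marker, 19 an antigen-presenting cell marker and 11 a macrophage marker. The part of such other cells in the results below was not tested.

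Promoter sequences are shown for the IL-23 receptor gene and both cytokine genes because these had matches to AGGTCA, a nuclear receptor half-site that the Rora product can bind. A further reason was that most receptor UMIs lay in cells without a cytokine UMI, although 8 of 15 cells with a cytokine UMI also had a receptor UMI. Each run is the 250 bases before the RefSeq start of the gene, on the gene's strand, in GRCm38.p6, with matches to AGGTCA or its reverse complement TGACCT in capitals. The regions are chr6:67491856-67492105 on the minus strand for Il23r, chr1:20730655-20730904 on the plus strand for Il17a and chr1:20784271-20784520 on the minus strand for Il17f.
Il23r: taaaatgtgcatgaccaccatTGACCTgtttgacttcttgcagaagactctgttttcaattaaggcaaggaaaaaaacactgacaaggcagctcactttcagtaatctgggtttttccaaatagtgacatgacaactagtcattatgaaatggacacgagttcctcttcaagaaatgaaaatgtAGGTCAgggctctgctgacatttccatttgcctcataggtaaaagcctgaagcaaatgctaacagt
Il17a: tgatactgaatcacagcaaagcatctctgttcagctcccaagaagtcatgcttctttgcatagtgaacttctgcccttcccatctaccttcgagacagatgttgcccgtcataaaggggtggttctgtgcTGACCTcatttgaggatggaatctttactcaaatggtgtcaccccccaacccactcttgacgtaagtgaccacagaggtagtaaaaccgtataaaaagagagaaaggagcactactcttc
Il17f: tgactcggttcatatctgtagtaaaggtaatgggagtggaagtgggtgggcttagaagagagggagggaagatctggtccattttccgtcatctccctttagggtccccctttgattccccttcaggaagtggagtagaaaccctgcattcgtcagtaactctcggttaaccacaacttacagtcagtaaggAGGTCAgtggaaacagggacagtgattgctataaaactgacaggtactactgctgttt
The matches began 229 and 66 bases before the start of Il23r, 120 before that of Il17a and 58 before that of Il17f. The first Ccr6 window also had a match, 44 bases before the start. The windows of Il17re, Il1r1, Ltb4r1 and Rora had none, and Serpinb1a had no entry. Of 32851 RefSeq promoter windows of this length, 14.0% held the motif on either strand. A match is a description of letters, not a bound site.

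Receptor genes were detected mainly in the MAIT gate and in ungated T cells. At least 1 UMI of the 5 receptor genes was present in 17 of 36 MAIT-gate cells (47.2%, interval 30.4 to 64.5) and in 44 of 228 ungated T cells (19.3%, 14.4 to 25.03). The share was 5.88% (1.94 to 13.2) in the CD4 gate and 2.99% (1.21 to 6.07) in the CD8 gate. The intervals of the CD4 and CD8 gates overlap, and those of the other gates do not overlap the CD8 gate's. Free RNA in droplets can give UMIs to cells that do not express a gene, and its share was not measured here. The 7 CD8-gate cells with a receptor UMI had a median depth of 7322 UMIs against 3122 in the other 227, and 6 of 7 had Tmem176a against 6 of 227. Doublets were kept, and what gave these 7 cells their receptor UMIs was not tested. At least 2 different receptor genes were detected in 11 MAIT-gate cells, 21 ungated T cells and 1 CD8-gate cell, and in 0 of 85 CD4-gate cells, where a count of 0 leaves room for up to 3.53%.

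Depth and library both moved these shares. With every cell thinned to 1000 UMIs, which left out 26 CD8-gate, 5 CD4-gate and 50 ungated T cells and no MAIT-gate cell, the receptor share was 27.8% in the MAIT gate, 12.4% in ungated T cells, 1.25% in the CD4 gate and 0.962% in the CD8 gate. At least 2 receptor genes were then left in 2 of 36 MAIT-gate cells (5.56%, 0.680 to 18.7) and 3 of 178 ungated T cells (1.69%, 0.349 to 4.85). The CD8 gate had 0 of 208 (interval 0 to 1.76), which overlaps both. In the MAIT gate 3 of 13 cells of library 1 (23.1%) and 14 of 23 of library 2 (60.9%) had a receptor UMI. In ungated T cells it was 10 of 122 (8.20%) and 34 of 106 (32.1%). The CD8 gate was at 5 of 190 (2.63%, 0.860 to 6.03) and 2 of 44 (4.55%, 0.555 to 15.5). The MAIT gate and ungated T cells were above it in each library, but in library 1 their intervals, 5.04 to 53.8 and 4.00 to 14.6, overlap that of the CD8 gate.

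Ltb4r1, the high-affinity receptor for the lipid chemoattractant leukotriene B4, was the receptor gene with most positive cells. It was detected in 12 of 36 MAIT-gate cells (33.3%, 18.6 to 51.0), 38 of 228 ungated T cells (16.7%, 12.1 to 22.2), 2 of 85 CD4-gate cells and 5 of 234 CD8-gate cells (2.14%, 0.697 to 4.92). By library, the MAIT gate had 3 of 13 and 9 of 23 positive cells and ungated T cells 10 of 122 and 28 of 106. The CD8 gate, with 3 of 190 and 2 of 44, was lower in each library. Thinned to 1000 UMIs, Ltb4r1 was at 2 of 36 MAIT-gate cells (5.56%, 0.680 to 18.7), 13 of 178 ungated T cells (7.30%, 3.95 to 12.2) and 2 of 208 CD8-gate cells (0.962%, 0.117 to 3.43). The MAIT gate was then no longer above ungated T cells, and its interval overlapped that of the CD8 gate.

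Il23r, the chain that gives the IL-23 receptor its specificity, was detected in 5 MAIT-gate cells (13.9%, 4.67 to 29.5), 9 ungated T cells (3.95%, 1.82 to 7.36) and 1 CD8-gate cell, and in no CD4-gate cell. All 5 MAIT-gate cells were from library 2, and none of the 13 cells of library 1 was positive. Il17re, a receptor chain for IL-17C, was detected in 7 MAIT-gate cells (19.4%, 8.19 to 36.0), 12 ungated T cells (5.26%, 2.75 to 9.01) and 1 cell each of the CD4 and CD8 gates. Il1r1, the signalling receptor for IL-1, was detected in 6 MAIT-gate cells (16.7%, 6.37 to 32.8), 10 ungated T cells (4.39%, 2.12 to 7.92), 1 CD8-gate cell and no CD4-gate cell. For each of these genes the intervals of the MAIT gate and ungated T cells overlap. Library 2 had the larger shares: Il17re was in 1 of 13 and 6 of 23 MAIT-gate cells, and in ungated T cells Il17re was at 1.64% and 9.43% and Il1r1 at 1.64% and 7.55%. Thinned, the MAIT-gate counts were 3 cells for Il23r, 4 for Il17re and 1 for Il1r1.

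Ccr6, the receptor for the chemokine CCL20, was the least detected receptor gene. It had 3 UMIs in 2 MAIT-gate cells, 2 UMIs in 2 CD4-gate cells, 3 UMIs in 3 ungated T cells and none in the CD8 gate, and its order among the gates could not be resolved at this depth.

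Over both libraries, the regulators were detected in more MAIT-gate cells than any receptor or cytokine gene. In library 1 alone this did not hold for Serpinb1a, with 2 of 13 cells against 3 of 13 for Ltb4r1. Rora, a nuclear receptor that takes part in the type 17 programme, had a UMI in 23 of 36 MAIT-gate cells (63.9%, 46.2 to 79.2). Its share was 22.4% (14.0 to 32.7) in the CD4 gate, 20.6% (15.6 to 26.5) in ungated T cells and 13.7% (9.55 to 18.8) in the CD8 gate, 3 values whose intervals overlap. The MAIT gate's interval lies above those of the other 3 at full depth. Thinned, Rora was at 27.8% (14.2 to 45.2) in the MAIT gate and 11.2% (7.00 to 16.8) in ungated T cells, which overlap, and in library 1 at 1 of 13 and 11 of 96, the other order. Serpinb1a, an inhibitor of neutrophil serine proteases, had a UMI in 19 of 36 MAIT-gate cells (52.8%, 35.5 to 69.6), 32 of 228 ungated T cells (14.0%, 9.80 to 19.2), 2 CD4-gate cells and 3 CD8-gate cells (1.28%, 0.265 to 3.70). Within the MAIT gate both were detected less often in library 1: Rora in 4 of 13 cells against 19 of 23, and Serpinb1a in 2 of 13 against 17 of 23. In ungated T cells Serpinb1a was at 4.92% and 24.5% by library. Thinned, it was at 8 of 36 MAIT-gate cells (22.2%, 10.1 to 39.2) and 17 of 178 ungated T cells (9.55%, 5.66 to 14.9), which overlap. All 8 of these MAIT-gate cells were from library 2. In library 1 the thinned counts were 0 of 13 in the MAIT gate, 5 of 96 in ungated T cells and 2 of 171 in the CD8 gate, the other order.

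**Figure D1:**
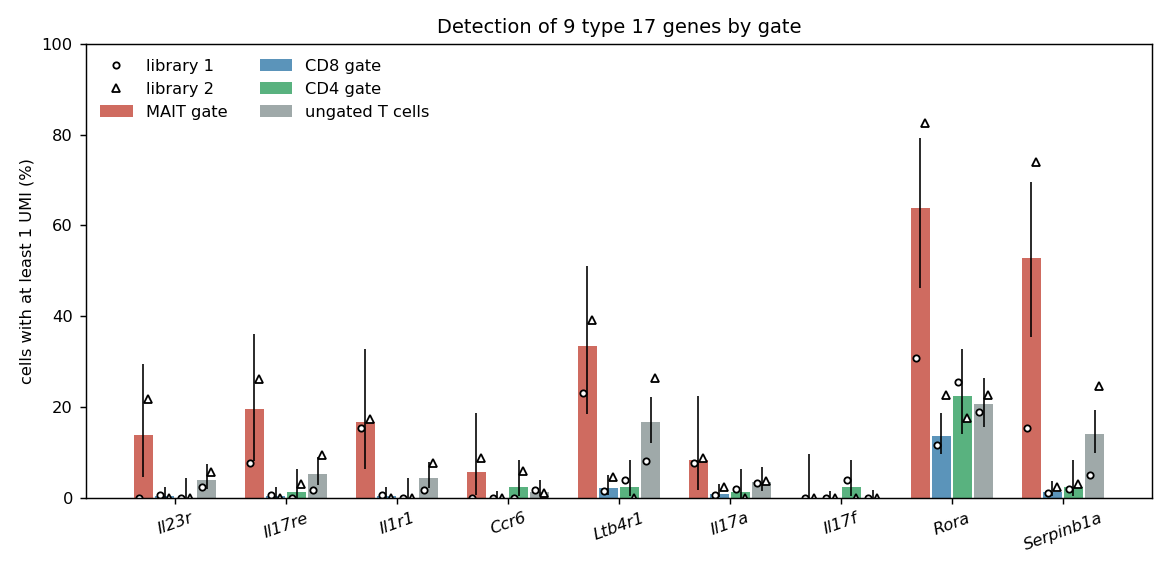
Share of cells with at least 1 UMI of each of the 9 genes (y axis, percent) in the MAIT, CD8 and CD4 gates and ungated T cells; bars give both libraries together, lines the exact 95% interval, circles library 1 and triangles library 2. Rora reaches 63.9% and Serpinb1a 52.8% of MAIT-gate cells, and in the MAIT gate the triangles lie above the circles for each gene with a UMI there.

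Cytokine UMIs were in few cells and were kept apart from receptor UMIs. Il17a was detected in 3 MAIT-gate cells (8.33%, 1.75 to 22.5), 8 ungated T cells (3.51%, 1.53 to 6.80), 2 CD8-gate cells and 1 CD4-gate cell. These intervals overlap, so no order of the gates by positive cells is read from them. The UMI sums were carried by single cells: 10 of 12 MAIT-gate UMIs lay in 1 cell of library 1, and all 65 CD4-gate UMIs lay in 1 cell of the same library. Il17f was detected in 2 CD4-gate cells of library 1, with 18 and 3 UMIs. It had no UMI in the other 3 gates, where 3 counts in place of 0 would be a share of cells with a UMI of 8.33% in the MAIT gate, 1.32% in ungated T cells and 1.28% in the CD8 gate.

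With the gates pooled, cells with cytokine UMIs had receptor UMIs more often than other cells, but most receptor UMIs lay elsewhere. Over the 4 gates, 15 cells had a cytokine UMI, of which 8 (53.3%, 26.6 to 78.7) also had a receptor UMI. Of the 568 cells without a cytokine UMI, 65 had one (11.4%, 8.94 to 14.4), at median depths of 2767 and 2707.5 UMIs. Of the 154 receptor UMIs, 20 (12.99%) were in cytokine-positive cells. In the MAIT gate alone the shares were 1 of 3 and 16 of 33, so the pooled difference was not seen there. Ungated T cells had 4 of 8 (50%, 15.7 to 84.3) and 40 of 220 (18.2%, 13.3 to 23.9), with intervals that overlap. The CD8 gate had 1 of 2 and 6 of 232, and the CD4 gate 2 of 2 and 3 of 83.

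Of the 135 cytokine UMIs, 106 (78.5%) were in receptor-positive cells, and 83 of these were in 1 cell. That cell, of the CD4 gate, had 65 Il17a and 18 Il17f UMIs, 3 Cd4 UMIs, 1 Ltb4r1 UMI and no UMI of the other receptor genes, Rora or Serpinb1a. The other Il17f-positive cell had 3 Ltb4r1 UMIs. The MAIT-gate cell with 10 Il17a UMIs had no receptor UMI, at a depth of 1003 UMIs.

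**Figure D2:**
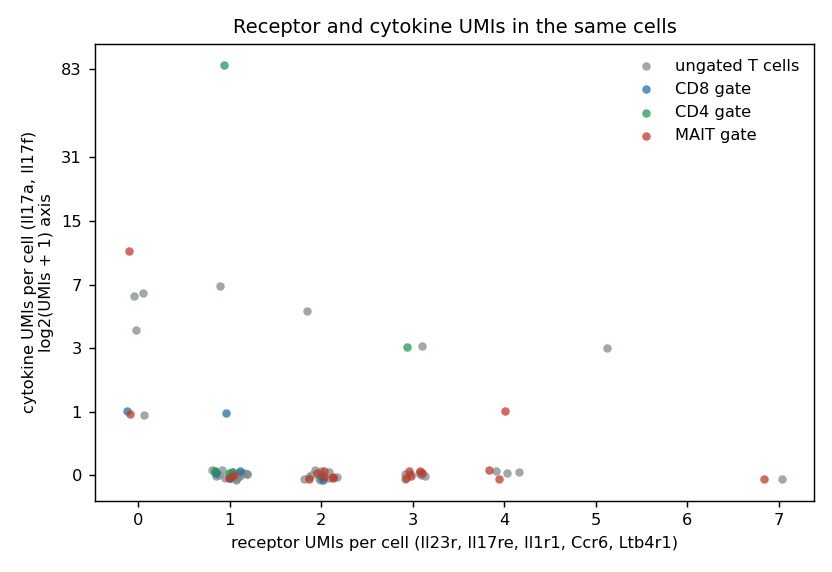
Receptor UMIs (x axis, sum of 5 genes) against cytokine UMIs (y axis, sum of Il17a and Il17f on a log2(UMIs + 1) axis) for each cell with either, with small random shifts so that points can be told apart; colours give the gate. Most points lie on the line of 0 cytokine UMIs, and the cell with 83 cytokine UMIs has 1 receptor UMI.

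At least 2 of the 9 genes were detected in 22 of 36 MAIT-gate cells (61.1%, 43.5 to 76.9) and 41 of 228 ungated T cells (18.0%, 13.2 to 23.6), against 3.53% of the CD4 gate and 2.99% of the CD8 gate. By library the share was 3 of 13 and 19 of 23 in the MAIT gate (23.1% and 82.6%) and 8.20% and 29.2% in ungated T cells. Thinned, it was 25% in the MAIT gate and 10.1% in ungated T cells, with overlapping intervals (12.1 to 42.2 and 6.10 to 15.5), and 1 MAIT-gate cell had at least 3. The most in 1 cell at full depth was 6 genes, in a MAIT-gate cell of 4275 UMIs. At full depth the CD8 gate had no cell with more than 3, and 28 of its 35 positive cells had 1.

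**Figure D3:**
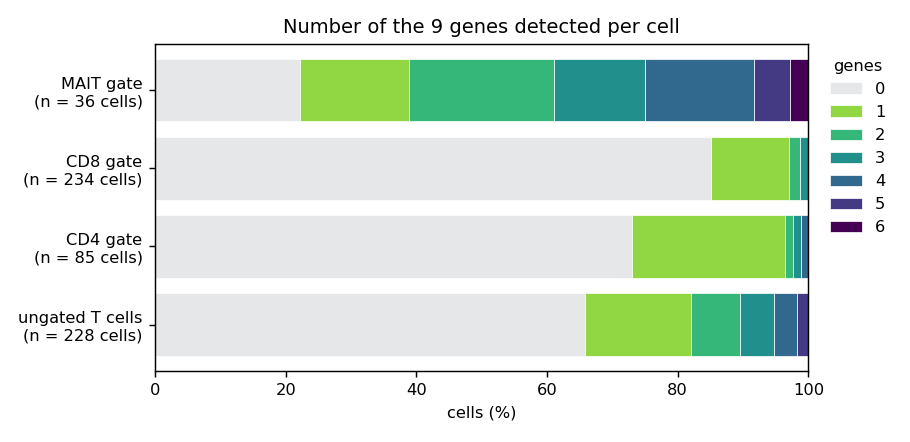
Share of cells (x axis, percent) by the number of the 9 genes detected in the cell (colour), 1 bar per gate. The MAIT gate has 61.1% of cells with at least 2 genes and the CD8 gate 2.99%.

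Within the 264 cells of the MAIT gate and ungated T cells, Ltb4r1 was detected more often in cells with Il23r, Il17re or Il1r1 than in cells without that gene. It was detected in 10 of 14 Il23r-positive cells (71.4%, 41.9 to 91.6) and in 40 of 250 others (16.0%, 11.7 to 21.1). The values were 15 of 19 against 35 of 245 for Il17re and 11 of 16 against 39 of 248 for Il1r1. Serpinb1a was detected in 11 of 14 Il23r-positive cells and in 40 of 250 others. Il23r and Il1r1 themselves met in 3 cells, and Il17re and Il1r1 in 6. Positive cells were deeper: the median was 3688.5 UMIs in Il23r-positive cells and 2378 in the others, and the part of depth in these shares was not tested.

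**Figure D4:**
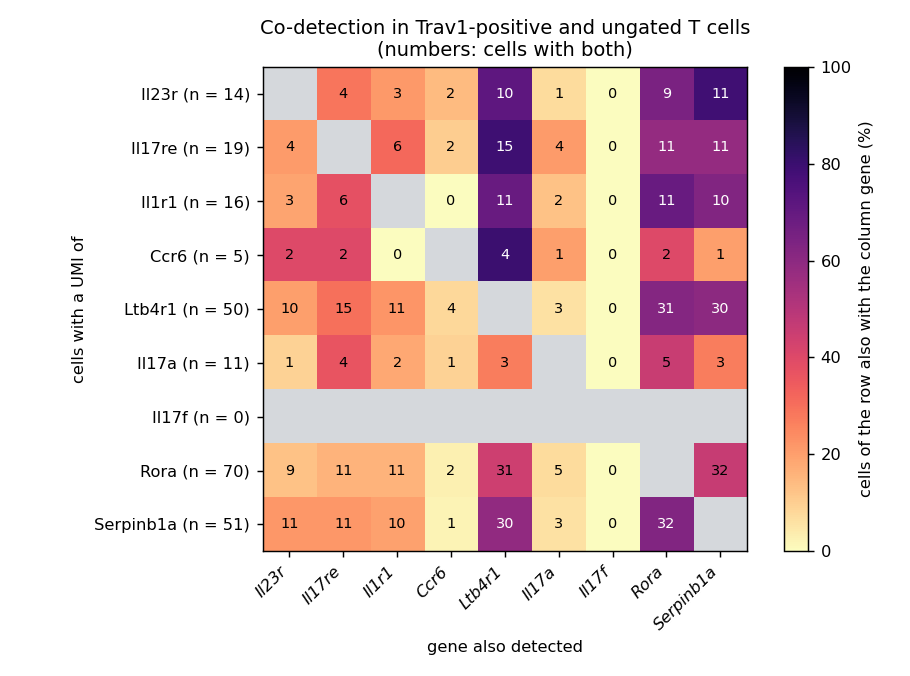
Co-detection in the 264 cells of the MAIT gate and ungated T cells: each row takes the cells with a UMI of that gene (n in the label), colour gives the percent of them with a UMI of the column gene, and the number is the count of cells with both; grey marks the gene itself and Il17f, which had no positive cell. The columns of Ltb4r1, Rora and Serpinb1a are darkest, with 10 of 14 Il23r-positive cells also positive for Ltb4r1.

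UMIs were then summed per gate and scaled to 1000000 UMIs of the gate (CPM). A gene was called higher when its CPM was at least 2 times that of the other gate over both libraries and higher in each, with at least 10 UMIs over the 2 gates. This is a rule of size, not a test. Of the 9 genes, 5 had enough UMIs against the CD8 gate, and all 5 of these were called higher in the MAIT gate, where 9.2% of 7145 genes were. The other 4 had under 10 UMIs, and a gene so rare in the CD8 gate could reach that minimum mainly through the MAIT gate, so the count is no support by itself.

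Serpinb1a was at 244 CPM (167 to 345) in the MAIT gate and 3.68 (0.758 to 10.7) in the CD8 gate, a ratio of 66.4 (20.8 to 339). By library its level was 49.85 and 329.9 CPM in the MAIT gate, from 2 and 30 UMIs. In the CD8 gate it was 3.11 and 5.81 CPM, from 2 and 1 UMIs. In library 1 the intervals of these gates overlap (6.04 to 180 and 0.376 to 11.2), and library 2 was the higher in both gates. Library 2 gave 69.4% of the UMIs of the MAIT gate and 21.1% of those of the CD8 gate, and ratios over both libraries therefore also carry the difference between libraries. Within libraries 1 and 2 the ratio was 16.05 and 56.8 for Serpinb1a, 16.05 and 15.2 for Ltb4r1, and 4.51 and 5.24 for Rora, each below the value over both libraries. The ratio was 62.3 (8.86 to 2702) for Il17re, with 10 and 1 UMIs, and 20.8 (8.04 to 63.2) for Ltb4r1, with 20 and 6. Rora was 6.23 times higher (4.03 to 9.63), with 45 UMIs in each gate. Il17a was 37.4 times higher (8.32 to 344), with 12 and 2 UMIs, and this call was lost without the top cell of each gate, where 5.16% of all genes were called. Its level by library was 249 and 22 CPM in the MAIT gate and 1.55 and 5.81 in the CD8 gate. The median log2 difference of the 5 genes, 4.75, is that of Il17a itself and covers only genes past the UMI minimum, so nothing is read from it beside the median of 0.32 for all genes tested. Scaling the gate sums by TMM (trimmed mean of M values) moved the latter to -0.02 and kept the same 5 calls. Over all genes it moved the calls from 657 higher and 538 lower to 371 (5.19%) and 971.

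Against the CD4 gate, 6 of the 9 genes had enough UMIs and 4 were called higher in the MAIT gate, where 8.37% of 4634 genes were. The limit set by the UMI minimum holds here too. Il17re was 18.7 times higher (2.66 to 811), Ltb4r1 9.34 times (3.13 to 37.6), Serpinb1a 8.54 times (3.70 to 22.9) and Rora 4.20 times (2.43 to 7.51). Within libraries 1 and 2 the ratio was 3.61 and 6.60 for Serpinb1a and 2.32 and 6.60 for Rora, and Ltb4r1 was 3.61 times higher in library 1, with no CD4-gate UMI in library 2. For Serpinb1a the groups overlapped across libraries, with 49.85 CPM in the MAIT gate of library 1 and 50.01 in the CD4 gate of library 2. The median log2 difference was 2.49 for the 6 genes and 0.05 for all genes tested, or 2.35 and -0.09 with TMM scaling, under which 295 genes (6.37%) were higher and 585 lower against 388 and 457. Neither cytokine gene met the rule. Il17a was at 91.6 CPM in the MAIT gate and 266 in the CD4 gate, a log2 difference of -1.44 that became 2.48 without the top cell of each gate and 1.72 without library 1. The top cells held 10 of 12 and all 65 Il17a UMIs of these gates. Without library 1 the MAIT gate had 2 UMIs and the CD4 gate 0, so the changed values rest on few UMIs. Il17f was at 0 and 85.8 CPM, all from library 1.

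Ungated T cells were compared with the same gates. Against the CD8 gate, which is also the reference above, 7 of the 9 genes had enough UMIs and all 7 were called higher, where 9.02% of 8145 genes were. Il23r, Il1r1 and Il17re had 12, 12 and 14 UMIs in ungated T cells and 1 each in the CD8 gate, so they reached the minimum only through the former, and the count is no support. Serpinb1a was 27.0 times higher (8.75 to 135), Il17re 21.8 (3.32 to 923), Il23r and Il1r1 each 18.7 (2.77 to 800), Ltb4r1 12.7 (5.45 to 36.4) and Rora 2.53 (1.72 to 3.75). Within libraries Serpinb1a was 11.04 and 28.4 times higher, Ltb4r1 7.36 and 12.2 and Rora 2.61 and 1.98. Whether ratios differed between ungated T cells and the MAIT gate was not tested. Against the CD4 gate, 3 of 8 were called higher, namely Ltb4r1 (5.73, 2.10 to 21.9), Serpinb1a (3.47, 1.57 to 9.06) and Il17re (6.54, 0.996 to 277), where 9.81% of 6883 genes were. Il17re had 14 UMIs in ungated T cells and 1 in the CD4 gate, so it reached the minimum only through the former, and its interval includes 1. This count is no support either. In library 1 the Ltb4r1 ratio was 1.66.

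The composition of the MAIT gate differed between libraries beside these results. A Cd4, Cd8a or Cd8b1 UMI was present in 14 of its cells, 10 of them among the 13 of library 1. Of those 14 cells, 7 had any of the 9 genes and 6 had Gzmk, a granzyme of CD8 T cells. Of the 22 cells without such UMIs, 21 had any of the 9 genes and 1 had Gzmk. Receptor UMIs were in 5 of 14 and 12 of 22, shares whose intervals overlap. This split was described after the values were seen. With the gate limited to those 22 cells, 3 of which were from library 1, 2 of the 9 genes were called higher against the CD8 gate (5.21% of all genes) and 1 against the CD4 gate (5.79%). Serpinb1a, Ltb4r1 and Il17re were detected in 15, 8 and 5 of these 22 cells, and their calls ended because the 3 cells of library 1 had no UMI of them while the rule requires the same direction in each library.

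Other genes of the pathway were read from named lists, chosen with earlier results of these data known. The limit set by the UMI minimum holds for each of these lists too, so their counts serve as description. Of the partner receptor chains and signalling genes, 3 of 12 tested were higher and 1 lower in the MAIT gate than in the CD8 gate, where 9.2% of all genes tested were higher and 7.53% lower. Il18r1, the IL-18 receptor, was 5.55 times higher (3.55 to 8.64). Il12rb1, which pairs with Il23r, was 5.095 times higher (1.87 to 13.5) and had a UMI in 8 of 36 MAIT-gate cells. Cxcr6, a chemokine receptor of tissue T cells, was 3.33 times higher (2.63 to 4.19), and Il21r, the IL-21 receptor, had 2 and 57 UMIs and was lower. Against the CD4 gate 5 of 11 were higher and 2 lower, beside 8.37% and 9.86% of all genes, among them Il18rap (6.85 times higher, 1.81 to 38.2) and Il6ra, an IL-6 receptor chain with 0 UMIs in the MAIT gate and 20 in the CD4 gate.

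Among transcription factors, Maf was 7.57 times higher (4.79 to 12.03) than in the CD8 gate, and Batf, an AP-1 family factor, was lower, with 1 and 54 UMIs. Of the factors listed, 2 of 7 tested were higher and 1 lower over the CD8 gate, and 0 of 8 were higher and 3 lower over the CD4 gate, beside 9.2% and 7.53% of all genes in the first comparison and 8.37% and 9.86% in the second. By the same rule of size, Batf, Hif1a and Ahr were the 3 lower than in the CD4 gate. Of other cytokine genes, 3 of 4 were higher over the CD8 gate, with Csf2 at 9.79 times (3.46 to 29.8) and Tnf at 3.77 times (2.52 to 5.58), and 1 of 4 over the CD4 gate (all genes 9.2% and 8.37%). Il22 and Ccl20 had no UMI in the 4 gates.

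Genes known from type 17 and innate-like T cells were called higher in 10 of 12 cases over the CD8 gate, beside 9.2% of all genes, and in 8 of 11 over the CD4 gate, beside 8.37%. A gene rare in the CD8 or CD4 gate could reach the UMI minimum mainly through the MAIT gate, so these counts are no support by themselves. Pxdc1 was 84.1 times higher (21.1 to 730) than in the CD8 gate and Tmem176a 21.5 times (14.5 to 32.7). Of the type 1 genes, 0 of 10 were higher and 5 lower than in the CD8 gate, where 7.53% of all genes were lower, among them Eomes with 0 and 95 UMIs and Gzma with 2 and 229. Of the type 2 and regulatory genes, 4 of 5 were lower than in the CD4 gate, where 9.86% of all genes were, among them Tnfrsf4 with 0 and 84 UMIs and Areg with 2 and 64.

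Ungated T cells with a receptor UMI were compared with those without one for other genes, which were chosen after first values had been seen and serve as description. Maf was detected in 32 of 44 cells with a receptor UMI (72.7%, 57.2 to 85.04) and in 54 of 184 without (29.3%, 22.9 to 36.5). Ccl5, a chemokine of cytotoxic T cells, was at 9.09% (2.53 to 21.7) and 44.6% (37.3 to 52.06), and Gzmk at 0 of 44, which allows up to 6.82%, and 14.1%. Median depth was 3388 and 1993.5 UMIs. Thinned to 1000 UMIs, Maf was at 36.4% of 22 cells and 19.9% of 156, with intervals that overlap, and Ccl5 at 0 of 22 and 34.6% of 156. By library, Maf was detected in 5 of 10 and 40 of 112 cells of library 1, and in 27 of 34 and 14 of 72 of library 2. In the MAIT gate Gzmk was detected in 0 of 17 cells with a receptor UMI and 7 of 19 without, 6 of these 7 in library 1. Thinned, it was at 0 of 10 and 3 of 26 there, with overlapping intervals.

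**Figure D5:**
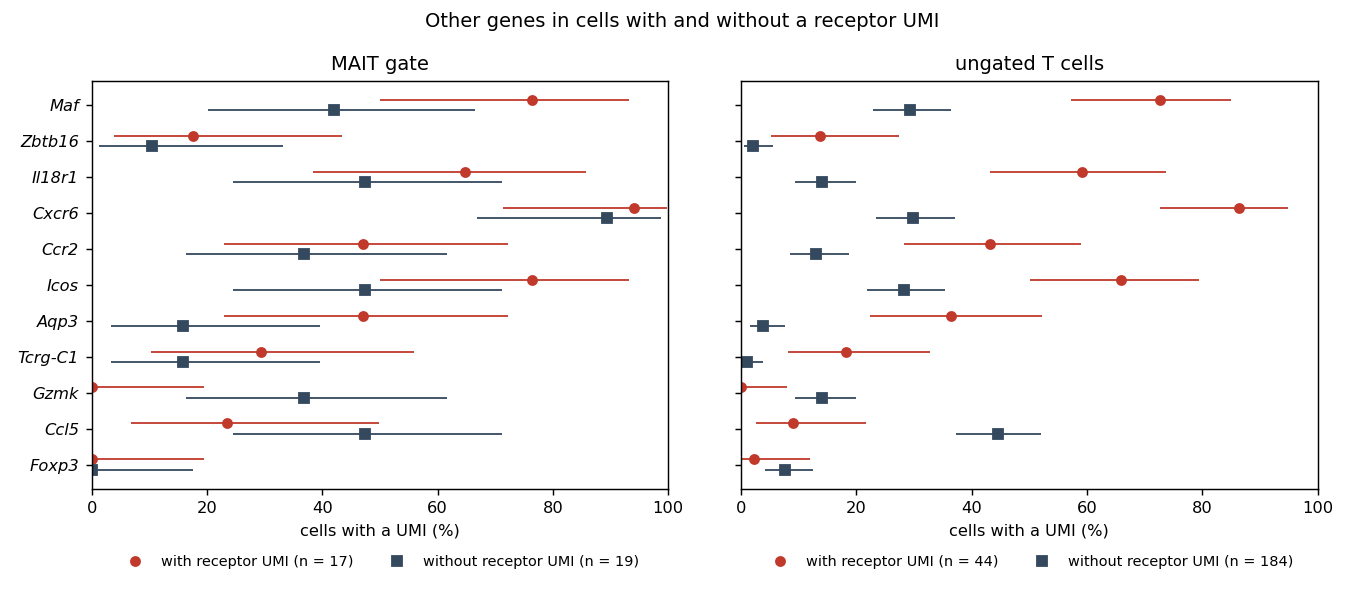
Share of cells with a UMI of 11 other genes (x axis, percent) in cells with a receptor UMI (circles) and without one (squares), for the MAIT gate (left) and ungated T cells (right); lines are exact 95% intervals. In ungated T cells Maf lies at 72.7% and 29.3% and Ccl5 at 9.09% and 44.6%.

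The genes whose level ran most like the number of the 9 genes detected per cell were Tmem176a, Ckb, Tmem176b, Ramp1, Smox, Actn2, Hk2, Fos, Selenop and Fosb. They were ranked by the smaller of the libraries' Pearson correlations among 4858 genes, over 376 and 207 cells, which share library and depth. Tmem176a had r = 0.62 and 0.68, and Fosb 0.34 and 0.50. The number of the 9 genes itself correlated with log2 depth at 0.13 and 0.34. Tmem176a was detected in 3.58% of cells with none of the 9 genes, 17.6% of cells with 1 and 87.7% of cells with at least 2.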

How the data were processed

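The authors deposited raw UMI counts per gene and barcode for both libraries, stored as whole numbers. The submitters' processing notes name Cell Ranger 5.1.0, STAR and mm10, while the matrix header names software version 3.1.0 per the file headers, and no source used here names the annotation release. There were 1202401 UMIs in the 401 barcodes of library 1 and 660814 in the 215 of library 2. Cells were gated as described, not clustered. UMIs were summed per gate and ratios of sums given with exact conditional binomial intervals, CPM with exact Poisson intervals and shares with exact Clopper-Pearson intervals. Log2 differences add 1 UMI per gate. A sum of 0 was replaced by 3 counts over the gate in bounds and in the rule of size; this was set after a first look at the counts. The rule was tested on simulated data. Pathway genes are named up to 4 per list and comparison, largest log2 difference first; some that qualify are only counted. Doublets were kept, and Scrublet (scanpy 1.11.5) calls were used as an alternative. TMM used edgeR 4.0.16. Gene models overlap for Il1r1 (Gm38070) and Rora (the antisense Gm15511), so their reads may not be separable. Members and lists were chosen with earlier results of these data known. The further genes set beside receptor UMIs, and the division of the MAIT gate by Cd4 and Cd8 UMIs, were chosen after their values had been seen, and ratios within each library were added after seeing the data. A further gene of the factor list is not reported here, and its list was counted without it.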

Additional observations from a re-analysis of the deposited data

Results flagged for a closer look

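Serpinb1a had 7 UMIs in the 17 cells that fell in no gate, which the comparisons did not use, 5 of them in 1 of 2 positive cells. This is above the 3 counts that an observed 0 allows, and the 234 CD8-gate cells had 3 Serpinb1a UMIs in all. The cell with 5 Serpinb1a UMIs had a depth of 23214 UMIs, against a median of 4150 in the 17 cells. The 17 cells had no UMI of the 6 T-cell markers, while macrophage markers were detected in 11 of them and antigen-presenting cell markers in 7. Neutrophil markers had no UMI there.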

How the results depend on the processing

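Of 80 recomputed values of the shares and counts, 65 stayed within their main interval or within 1.5 times the main count, 15 moved and none reversed; of 187 recomputed log2 differences of the 9 genes, 10 moved and no called gene changed sign. Il17a, not called against the CD4 gate, did change sign there: from -1.44 to 2.48 without the top cells, 1.72 without library 1 and 0.23 with the mean of single-cell CPM. Without library 1 it had 2 UMIs in the MAIT gate and 0 in the CD4 gate. Il17f, also not called, went from -3.56 to 0.14 without library 1. Neither gate then had an Il17f UMI, so 0.14 comes from the UMI added to each gate and gives no direction. With the MAIT gate limited to cells without Cd4, Cd8a or Cd8b1 UMIs, 2 genes were called over the CD8 gate (Il17a and Rora) and 1 over the CD4 gate (Rora); Serpinb1a, Ltb4r1 and Il17re, detected in 15, 8 and 5 of the 22 cells, lost their calls through the 3 cells of library 1, all at 0. Leaving out each library gave 2 to 3 calls over the CD8 gate and 1 to 4 over the CD4 gate, with fewer cells entering. Of all genes tested, 15.1% were then higher over the CD8 gate without library 1 and 15.7% without library 2. Over the CD4 gate these shares were 13.2% and 11%. For the CD8 gate comparison Il17re was lost without either library, and Il17a without library 1. The receptor share ranged from 23.1% to 60.9% in the MAIT gate and from 8.20% to 32.1% in ungated T cells when a library was left out. Thinning gave 27.8%, 12.4%, 1.25% and 0.962% in the MAIT gate, ungated T cells, CD4 gate and CD8 gate, and requiring 2 receptor UMIs gave 10.53%, 1.18% and 0.855% in the last 3. The cause of the other moves was not tested. Over all genes, 657 were higher over the CD8 gate, against 2535 with 5 UMIs added, 1181 at a fold of 1.5, 369 without top cells and 363 with the limited MAIT gate. Over the CD4 gate 388 were higher, against 829 with no UMI minimum, 745 at a fold of 1.5 and 240 with the limited MAIT gate. TMM scaling moved the share of calls that were higher: 371 genes were higher and 971 lower over the CD8 gate, against 657 and 538 without it, and 295 and 585 over the CD4 gate, against 388 and 457.

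Scrublet marked 82 of 609 cells. Its automatic threshold in library 2 (0.131, 36 cells) was found to change with the number of computing threads, so a fixed score of 0.18 was added after seeing the data; it marked 26 cells, 15 of them in library 2. Under either call 5 genes were called over the CD8 gate and 3 over the CD4 gate, with Il17re no longer among the latter. Of all genes tested, 9.97% (automatic) and 10% (fixed) were then higher over the CD8 gate, and 9.54% and 8.6% over the CD4 gate. The limit set by the UMI minimum holds here too. The receptor share of the MAIT gate was 46.7% and 45.5%.

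No paired analysis was possible because both libraries are parts of 1 pool and no test was run between groups of samples. With 13 and 23 MAIT-gate cells, Ccr6 could not be ordered among the gates, and Il23r and Il1r1 fell under the UMI minimum of the rule of size. At full depth over both libraries their detection intervals in the MAIT gate lie above those of the CD8 gate. Thinned, the intervals of both genes overlap those of the CD8 gate. In library 1 Il23r was in 0 of 13 MAIT-gate cells and 1 of 190 CD8-gate cells, the other order.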
